A study of Mus musculus with 4 samples.

Results

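The genes described are 10 core genes of the circadian clock, namely Clock, Arntl, Per1, Per2, Per3, Cry1, Cry2, Nr1d1, Nr1d2 and Dbp, of 21631 genes annotated as protein-coding on the autosomes and chromosome X. They were chosen by name, and every Deaf1 peak that lay inside a gene's RefSeq span or within 5 kb of it was taken. This gave 67 of the 65606 peaks of replicate 1 and 31 of the 26503 peaks of replicate 2. Overlaps between the replicates joined them into 31 shared regions. The peaks came from chromatin immunoprecipitation and sequencing (ChIP-seq) with an antibody against Deaf1 in the mouse line C2C12, whose myoblasts fuse into muscle fibres when cultured in low serum, and the sample labels call the cells myocytes. The 4 samples were 2 replicates of Deaf1 ChIP and 2 of input chromatin, all formaldehyde-crosslinked and without a further genotype or treatment, and the inputs were not analysed here. The labels give neither a time of collection nor a synchronisation of the cells, so the values below stand for no known clock phase. Peak lists carry no expression values, and the labelled cell type was not checked against marker genes. The sources do not say that the replicates were independent cultures, so their spread may be technical, and with 1 condition no test between groups was possible.

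Deaf1 is a transcription factor that binds DNA through its SAND domain and prefers sequences with the TTCG half-site. The mammalian clock is a feedback loop in which CLOCK and BMAL1, the product of Arntl, bind E-boxes and activate the Per and Cry genes, whose proteins then inhibit CLOCK and BMAL1. The nuclear receptors REV-ERBα and REV-ERBβ, encoded by Nr1d1 and Nr1d2, repress Arntl, and DBP carries the rhythm to output genes through D-boxes. In skeletal muscle this loop is known to time genes of fuel use and contraction.

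Promoter sequences of 9 of the 10 genes were found in RefSeq windows of GRCm38.p6, the assembly behind mm10, and Per2 had no entry. The 250 bases before a listed transcription start are printed for 6 of the genes, 5′ to 3′ on the gene's own strand, because these hold the E-box and D-box matches (Cry1, Per1 and Per3) or stand for a high (Clock) or low fold at a start (Nr1d1 and Dbp). Capitals mark matches, on either strand, to the TTCG half-site (CGAA when read on the other strand), the E-box CACGTG, the D-box TTATGTAA and the nuclear receptor half-site AGGTCA, which reads TGACCT on the other strand.
Clock, chr5:76304793-76305042, minus strand: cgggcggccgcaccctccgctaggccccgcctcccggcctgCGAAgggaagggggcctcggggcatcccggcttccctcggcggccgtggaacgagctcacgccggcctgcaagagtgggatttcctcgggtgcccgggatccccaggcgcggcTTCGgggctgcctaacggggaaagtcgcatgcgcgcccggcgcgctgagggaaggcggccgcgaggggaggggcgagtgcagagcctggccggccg
Per3, chr4:151044666-151044915, minus strand: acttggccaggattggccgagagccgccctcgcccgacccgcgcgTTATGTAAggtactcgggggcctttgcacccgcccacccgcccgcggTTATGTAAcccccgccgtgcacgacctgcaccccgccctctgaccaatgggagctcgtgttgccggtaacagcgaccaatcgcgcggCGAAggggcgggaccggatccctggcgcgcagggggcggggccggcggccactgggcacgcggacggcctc
Cry1, chr10:85185055-85185304, minus strand: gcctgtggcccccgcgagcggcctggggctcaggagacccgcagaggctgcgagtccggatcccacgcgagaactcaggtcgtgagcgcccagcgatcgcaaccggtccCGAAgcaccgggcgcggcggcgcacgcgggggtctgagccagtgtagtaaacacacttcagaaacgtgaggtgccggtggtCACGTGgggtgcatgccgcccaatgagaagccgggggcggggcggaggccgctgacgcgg
Per1, chr11:69098699-69098948, plus strand: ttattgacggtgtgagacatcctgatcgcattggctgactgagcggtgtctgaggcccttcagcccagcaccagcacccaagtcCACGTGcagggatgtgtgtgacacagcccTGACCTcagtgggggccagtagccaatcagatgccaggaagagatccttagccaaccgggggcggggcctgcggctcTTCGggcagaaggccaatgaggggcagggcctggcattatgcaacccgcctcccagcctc
Nr1d1, chr11:98775378-98775627, minus strand: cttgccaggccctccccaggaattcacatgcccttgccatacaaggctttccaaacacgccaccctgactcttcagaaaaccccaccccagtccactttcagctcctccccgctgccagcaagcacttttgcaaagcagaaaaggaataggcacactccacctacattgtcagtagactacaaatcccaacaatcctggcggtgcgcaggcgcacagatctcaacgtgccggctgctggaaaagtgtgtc
Dbp, chr7:45704997-45705246, plus strand: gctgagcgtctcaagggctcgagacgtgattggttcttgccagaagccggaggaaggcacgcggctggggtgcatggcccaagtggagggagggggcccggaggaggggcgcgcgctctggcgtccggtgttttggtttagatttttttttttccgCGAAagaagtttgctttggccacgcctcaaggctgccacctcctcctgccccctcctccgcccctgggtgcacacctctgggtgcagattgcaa

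All 10 clock genes had at least 1 Deaf1 peak in both replicates by this rule. The same held for 63.5% of all protein-coding genes, and for 70.3% of the 15080 genes whose spans lie between those of Dbp (5104 bp, the shortest of the 10) and Arntl (135656 bp, the longest). A gene with a longer span has more room for a peak, and the median span was 39213 bp for the clock genes against 17329 bp for all. Fold enrichment, the authors' value for the signal at a peak's summit over the background that the peak caller estimated, differed widely among the shared regions. In 10 of the 31 the fold was 15 or more in both replicates, with values of 19.1 to 29.8 in replicate 1 and 17.8 to 35.3 in replicate 2. In the other 21 the lower of the replicates' folds reached 10.9 at most. The limit of 15 was placed in this gap after the values were seen.

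**Figure D1:**
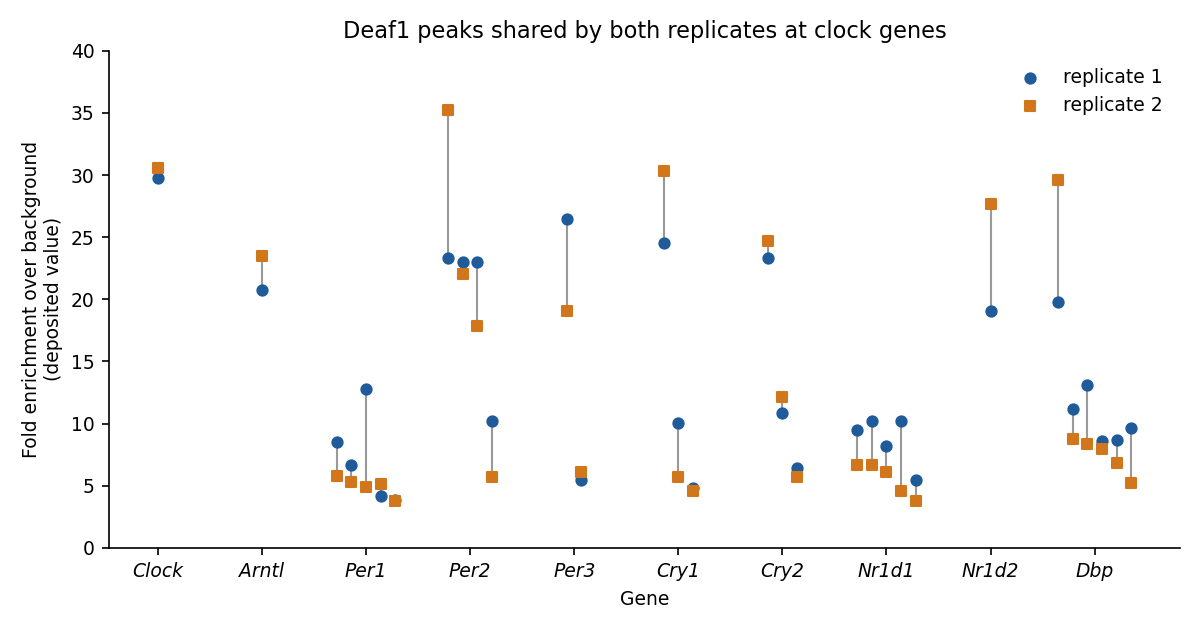
Fold enrichment (vertical axis, deposited value) of each of the 31 shared regions, by gene, with replicate 1 as circles, replicate 2 as squares and a line joining the replicates of a region. Clock, Arntl and Nr1d2 have 1 region each, with folds of 19.1 or more, whereas all 5 regions of Per1 and all 5 of Nr1d1 have a lower fold below 7.

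Clock and Arntl encode the activators, and each had a single shared region, at its start. Clock (chromosome 5, 76209868 to 76305603) had the highest fold in replicate 1 among the 10 genes, 29.8, with 30.5 in replicate 2. These folds stood at the 99.9th and 98.5th percentiles of the peaks of each list. The region ran from 76303643 to 76305255, and the summits, 112 and 124 bp downstream of the most upstream listed start, lay 12 bp apart. The noncoding gene Gm7467 overlaps this region. Between that start and the summits stood a TTCG half-site. It lay 10 bp from the summit of replicate 1 and 22 bp from that of replicate 2. This site was picked as the match in the Clock promoter windows nearest to the replicate 1 summit. The other matches in those windows lay 207 bp or more from that summit or outside the peaks. The picked site is shown here within 30 bases.
Clock, chr5:76304675-76304704, minus strand: gacggcgagagcgCGAAggaaatctggccg

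Arntl (chromosome 7, 113178471 to 113314126) had folds of 20.8 in replicate 1 and 23.5 in replicate 2 over a region from 113207347 to 113208429. The summits were 382 and 180 bp downstream of the nearest listed start and 202 bp apart, so the height was alike in the replicates while the position was less so. A requirement of summits within 100 bp would leave Arntl as the single clock gene without a shared peak. Each of these genes also had 1 weak peak in replicate 1 without a partner, with a fold of 5.43 at Clock and 4.47 at Arntl.

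The Period genes, whose proteins form the repressor complex with the cryptochromes, differed from one another. Per2 (chromosome 1, 91415977 to 91459351) had its highest region at the higher-coordinate end of its span, with folds of 23.3 and 35.3. Its summits lay 132 and 124 bp inside that end, and the replicate 2 value was at the 99.8th percentile of its list. The next 2 regions by fold, with 23.0 and 22.0 and with 23.0 and 17.8, lay beyond the lower end, within 1 kb of an end of Hes6, which encodes a bHLH repressor. They belong to Per2 only by the 5 kb rule. A further region inside Per2 had folds of 10.2 and 5.69.

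Per3 (chromosome 4, 150997018 to 151044707) had folds of 26.4 and 19.1 at its start, with summits 19 bp downstream and 3 bp upstream of it. An end of the predicted gene Gm38529 lies within 1 kb of that peak. The lower fold in replicate 2 came with a raised local background of 3.25 fragments, where the lowest of that list was 1.64, and the summit pileups, the number of fragments that cover the summit, were 83 and 80. A second Per3 region, 36266 and 36270 bp downstream of the start, had folds of 5.43 and 6.07.

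Per1 (chromosome 11, 69095108 to 69109965) carried many weak peaks, 12 in replicate 1 and 5 in replicate 2. Its 5 shared regions were all inside the span. The region with the highest lower fold stood at the second listed start, with folds of 8.53 and 5.81 and summits 86 and 80 bp upstream. A region 7562 and 7574 bp downstream of the first start had 6.70 and 5.31, and one 1842 and 1884 bp upstream of that start had 12.8 and 4.93. Of the Per1 regions this last one differed most between replicates, with pileups of 46 and 12 fragments. At the first start itself the folds were 4.19 and 5.12, and the remaining region had 3.83 and 3.79.

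The cryptochrome genes had strong regions at their starts in both replicates. Cry1 (chromosome 10, 85131700 to 85185054) had folds of 24.5 and 30.3, with summits 80 and 106 bp downstream of the start. A pair of weaker shared regions lay far inside the gene, 51889 and 51881 bp downstream with folds of 10.1 and 5.69, and 40506 and 40553 bp downstream with 4.79 and 4.55. Cry2 (chromosome 2, 92403646 to 92434085) had folds of 23.3 and 24.7, and its summits were 108 and 101 bp downstream of the start. The Cry1 and Cry2 start regions thus resembled each other in height and in place. Cry2 also had a region inside the gene with folds of 6.39 and 5.69, and another beyond its lower end with 10.9 and 12.1. The latter is shared with Mapk8ip1, a scaffold gene of JNK signalling, whose span it overlaps.

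**Figure D2:**
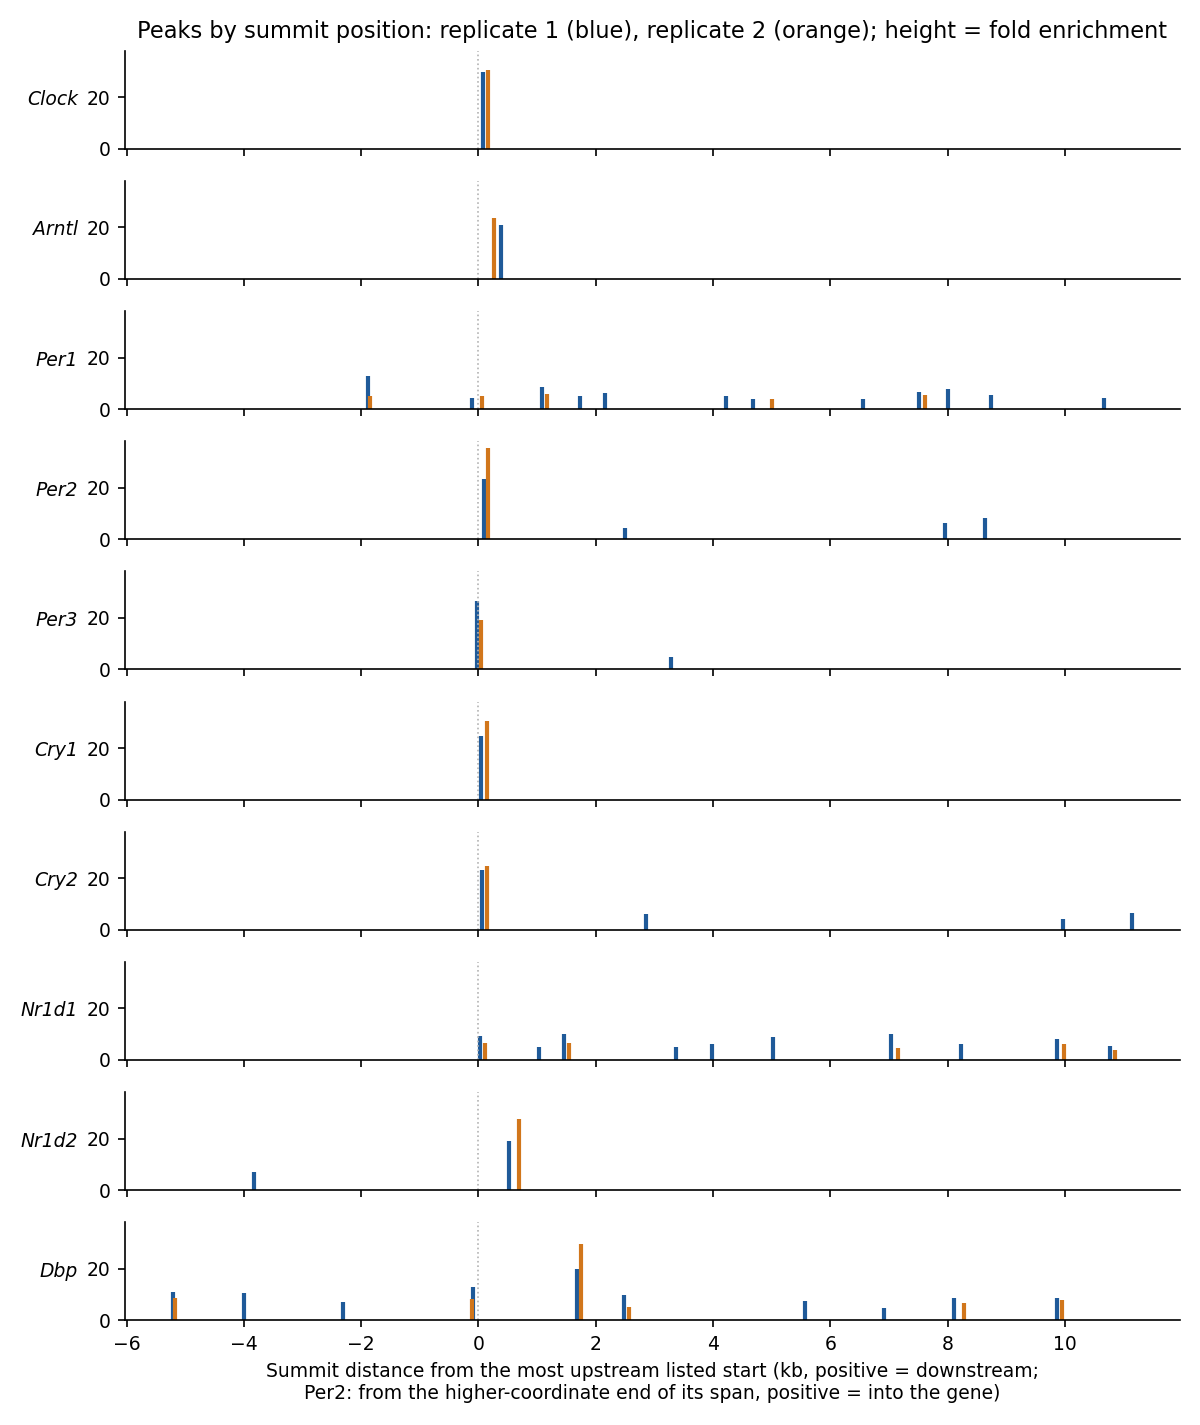
Peaks of each gene by the distance of the summit from the most upstream listed start (horizontal axis, kb; for Per2 from the higher end of its span), with fold enrichment as height, replicate 1 in blue and replicate 2 in orange, drawn slightly side by side; peaks farther away than the axis are left out. Clock, Arntl, Per2, Per3, Cry1, Cry2 and Nr1d2 have their highest lines in this range at or just inside the start, Dbp has its highest about 1.7 kb downstream, and Per1 and Nr1d1 have low lines throughout.

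Nr1d1 and Nr1d2 encode related receptors, yet their peaks differed. Nr1d2 (chromosome 14, 18204056 to 18239106) had 1 shared region with folds of 19.1 and 27.7, and summits 567 and 650 bp downstream of the start. Nr1d1 (chromosome 11, 98767932 to 98775377) had 10 peaks in replicate 1 and 5 in replicate 2, and all 5 of the latter overlapped one of the former. Its start region had folds of 9.45 and 6.66, with summits 66 and 69 bp downstream, and the noncoding gene Gm31862 begins or ends within it. A region 1495 and 1502 bp downstream had 10.2 and 6.63, and one 9911 and 9953 bp downstream had 8.17 and 6.07. The last lies within the span of Thra, the thyroid hormone receptor alpha gene, which overlaps the far end of Nr1d1. The remaining 2 regions also lay in Thra, with folds of 5.45 and 10.2 in replicate 1 and 3.79 and 4.55 in replicate 2.

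Dbp, the output gene (chromosome 7, 45705100 to 45710203), had its strongest region inside the gene and not at its start. Folds were 19.8 and 29.6 in a region from 45706578 to 45707122, with summits 1728 and 1712 bp downstream of the start. At the start the folds were 13.1 and 8.34, with summits 58 and 142 bp upstream, so the inner region was higher in both replicates. An end of Car11, a carbonic anhydrase-related gene, lies within 1 kb of that start peak. E-boxes inside Dbp introns are known sites of CLOCK and BMAL1, but the bases of the inner region were not analysed here. A region at Car11, with summits 5175 and 5211 bp upstream of the Dbp start, had folds of 11.2 and 8.72. The remaining 3 shared regions had folds of 8.62 to 9.68 in replicate 1 and 5.22 to 7.96 in replicate 2, and 2 of them lay in the span of the neighbour Sphk2, a sphingosine kinase gene. One of these was also within 1 kb of an end of Rpl18, a ribosomal protein gene.

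The height of the signal at the start divided the genes. In the 9 genes with a listed start, all had a shared peak with both summits within 1 kb of a start, against 53.9% of the 17274 protein-coding genes in the promoter table. A fold of 15 or more in both replicates there was reached by 6 of the 9, against 24.8% of those genes. Of the 9316 genes with a shared peak at a start, 4291 reached it. Over the whole window the same limit was passed by 8 of the 10, against 31.0% of all protein-coding genes. Of the 13743 genes with a shared peak in that window, 6704 passed it. The median over genes of the lower fold at a start was 19.1 for the 9 clock genes and 14.2 for the 9316 genes with a shared peak there. Clock stood at the 99.6th percentile of those genes, Cry1 at the 92.9th, Cry2 at the 89.6th, Arntl at the 79.7th, Nr1d2 at the 72.7th and Per3 at the 72.7th. Dbp was at the 20.7th, Nr1d1 at the 12.7th and Per1 at the 8.77th. Per3 and Nr1d2 did not differ beyond their replicates, since Per3 was higher in replicate 1 and Nr1d2 in replicate 2. Per1 and Nr1d1, too, differed by less than their own replicates did. In these lower folds the step from Dbp (8.34) to Per3 (19.1) was wider than the gap between the replicates of either gene. In replicate 1 alone the step ran from 13.1 at Dbp to 19.1 at Nr1d2. That was narrower than the gap between the Nr1d2 replicates, 19.1 and 27.7.

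Summit pileups gave the same division without the background in the denominator. Whole fragment numbers were recovered from the deposited fold and p, and their exact Poisson intervals at 95% cover counting error only. At the start region of Clock the pileup was 100 fragments in replicate 1 (81.4 to 122) and 83 in replicate 2 (66.1 to 103). At Arntl it was 64 (49.3 to 81.7) and 61 (46.7 to 78.4). Clock had the highest pileup of the 10 start regions in replicate 1. At Nr1d1 the pileup was 40 (28.6 to 54.5) and 19 (11.4 to 29.7), at Dbp 40 (28.6 to 54.5) and 21 (13.0 to 32.1), and at Per1 36 (25.2 to 49.8) and 30 (20.2 to 42.8). Among the other genes, Per2 included, the pileups ran from 64 to 92. In replicate 2 the intervals of Per1, Nr1d1 and Dbp ended below those of all 7 other genes, while in replicate 1 they reached into some of them. The depth of the lists is unknown, so these intervals are compared within a replicate only. The background was raised at Per1 (3.34 and 4.33 fragments) and at Nr1d1 (3.34 and 2.00) over the lowest values of the lists, 2.13 and 1.64, and was at those lowest values at Dbp. It was also raised at starts with high folds, namely at Per3 (2.18 and 3.25), at Nr1d2 (2.67) and Cry1 (2.50) in replicate 1, and at Clock (2.39 and 1.75). The part of the background in the low folds was not tested.

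**Figure D3:**
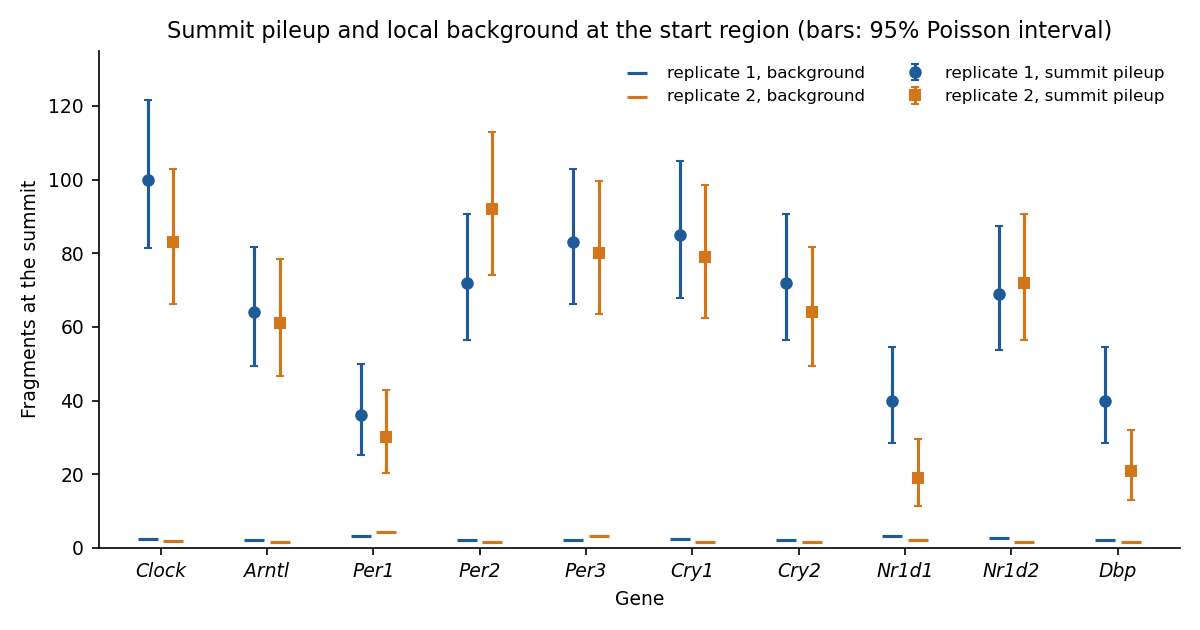
Fragments covering the summit of the start region (points) with exact 95% Poisson intervals, and the local background (short horizontal marks), for replicate 1 (circles) and replicate 2 (squares); for Per2 the region at the higher end of its span is used, and for Per1 the one at its second start. Per1, Nr1d1 and Dbp have 19 to 40 fragments and the other genes 61 to 100.

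The genes with a low start were also those with the most closely spaced peaks. Counted per 10 kb of gene and flanks, replicate 1 had 6.62 peaks at Dbp, 5.73 at Nr1d1 and 4.83 at Per1, which are percentiles of 99.4, 98.7 and 97.2 among all protein-coding genes. Per2 and Cry2 followed with 2.06 and 1.98. Clock had 0.189 and Arntl 0.137, below the median of 0.412 over all genes. In replicate 2 the same 3 genes led, with 3.97 at Dbp, 2.87 at Nr1d1 and 2.01 at Per1, against a median of 0.195. Dbp (5104 bp), Nr1d1 (7446 bp) and Per1 (14858 bp) also have the shortest spans of the 10 genes, and the percentiles are over genes of all spans. Flanks make up a larger part of the window in short genes, and for Dbp and Nr1d1 the windows take in neighbouring genes. The part of span length in the close spacing was not tested. In replicate 1, 36 of the 67 peaks of the clock genes had no partner (53.7%, against 65.0% of the whole list), and their folds ran from 3.83 to 10.5 with a median of 5.43. In replicate 2, 0 of 31 lacked a partner, against 6.07% of that list.

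**Figure D4:**
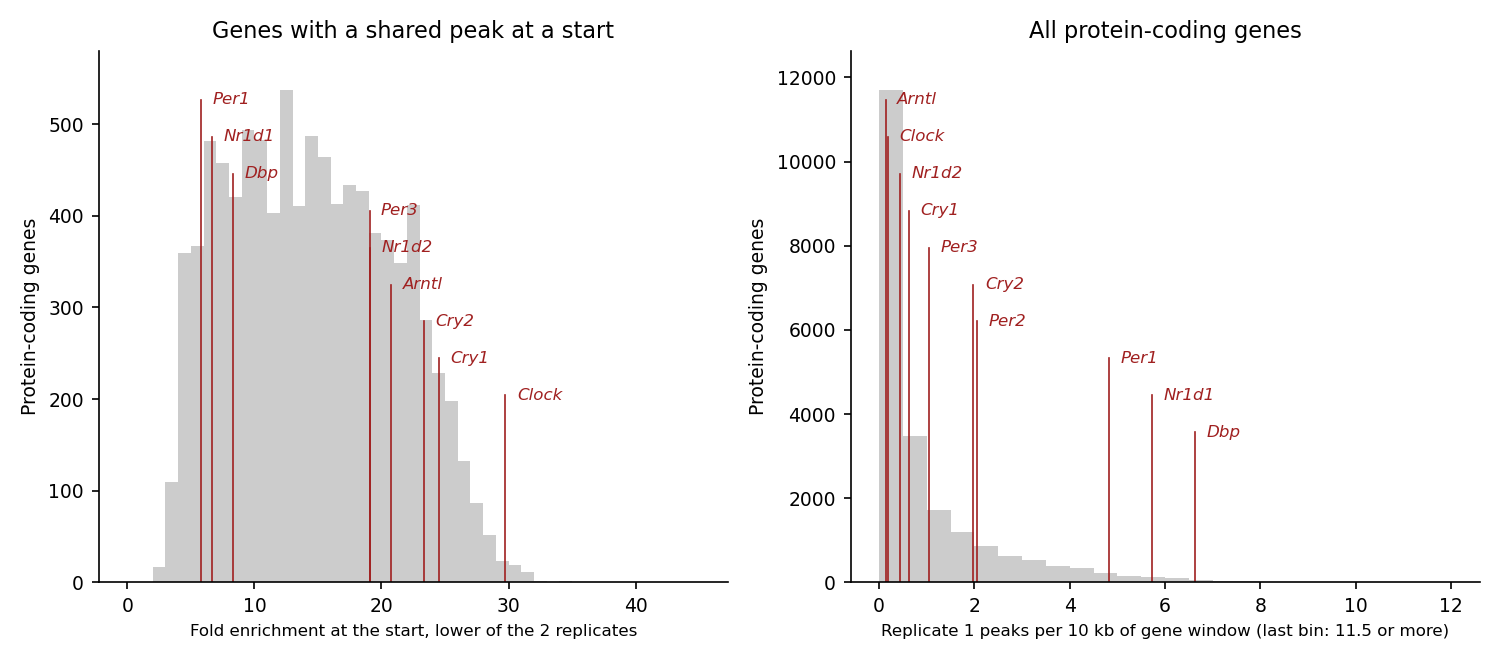
Left, the lower of the replicates' folds at a start for the 9316 protein-coding genes with a shared peak there (bars, number of genes) with 9 clock genes marked. Right, replicate 1 peaks per 10 kb of gene and 5 kb flanks for all 21631 protein-coding genes with all 10 marked. Per1, Nr1d1 and Dbp are lowest among the marked genes on the left and highest on the right.

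The replicates placed their summits close together. The median gap over the 31 regions was 26 bp, and 28 of them had summits within 100 bp. The gap over all shared peaks of the lists is not given here, so closeness is not read as particular to these regions. The widest gap, 243 bp, was in a weak Per1 region. Strong and weak regions leaned in opposite directions between replicates: of the 10 regions with a fold of 15 or more in both, 7 were higher in replicate 2, and of the other 21, 18 were higher in replicate 1. Each fold is scaled to its own list, and the same counts over all shared peaks of the lists are not given here. The lean is thus not read as a trait of the clock regions. The lowest −log10 q of any shared region was 3.42 in replicate 1 and 2.60 in replicate 2, both in the weakest region of Per1, and an Nr1d1 region in Thra had the same replicate 2 value.

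Position relative to other genes also separated the regions. Both summits lay within the clock gene's span in 23 of the 31, and all 8 others lay in the span of another protein-coding gene or within 1 kb of its end. Counting regions inside the span too, 11 had such a neighbour. Just inside the 5 kb limit, by the nearest edge of a peak, stood peaks on opposite sides of Dbp. In replicate 1 a peak with a fold of 8.62 in Sphk2 was 4785 bp away. In replicate 2 a peak with 8.72 at Car11 was 4963 bp away, and its summit lay beyond the limit. Just outside were peaks 5327 bp from Per3 and 5371 bp from Dbp in replicate 1, with folds of 3.51 and 5.43.

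The 4 sequence elements were counted in the promoter windows of 9 clock genes. The 13 windows of 300 bases ran from 250 before to 50 after a start, and windows of Clock and of Arntl overlap in part. TTCG was found in 10, against 44.7% of the 32851 windows in the table, and none of the 13 held 3 or more. Both Arntl windows hold the same TTCG sites, which are thus counted again. Unlike the gene shares above, the 32851 windows, of 27025 genes, are not limited to protein-coding genes. No window of Cry2, Nr1d1 or Nr1d2 had TTCG. Clock, Arntl and Per1 gave more than a single window each, all with TTCG, so the 10 are windows and not genes. TTCG contains a CpG, and the clock windows held 9 to 46 CpGs where the median window held 7. The part of base composition in the TTCG count was not tested. At the first Per1 start a TTCG lay 4 bp from the replicate 1 summit and 75 bp from that of replicate 2. Another TTCG, beyond the printed bases, lay 86 bp from the replicate 1 summit and 7 bp from that of replicate 2. At Dbp the TTCG stood 34 and 50 bp from the summits, and at Per3 89 and 67 bp. At Cry1 it stood 220 and 246 bp away. The window of the second Per1 start, where the Per1 fold was higher, had a single TTCG, outside the peaks of both replicates. At Arntl the nearer TTCG was 533 bp from the replicate 1 summit and outside the replicate 2 peak.

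The E-box CACGTG was present in 2 of the 13 windows, those of Cry1 and of the first Per1 start, against 7.15% of all windows. In Cry1 it lay 138 and 164 bp from the summits, inside the peak of both replicates, and in Per1 it lay inside the replicate 1 peak alone. The D-box occurred only in the Per3 window, which held 2 copies, 221 and 174 bp from the replicate 1 summit and 199 and 152 bp from that of replicate 2. A D-box was found in 0.938% of all windows, and 7 of the 32851 held 2 or more. AGGTCA was found in 4 of the 13, at Clock, Arntl, Per1 and Nr1d2, against 16.3% of all windows. The letters alone do not show a bound site, and D-boxes and E-boxes that differ by a base were not searched.

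Other genes of the clock pathway, 21 in number, all had a peak in both replicates within 5 kb, against the 63.5% given above. Their median lower fold at the best region was 15.3, close to the 14.8 of all 13743 genes with a shared peak, and that of the 10 core genes was 20.3. A fold of 15 or more in both was reached by 11 of the 21, against 31.0% of all protein-coding genes. All 21 had a shared peak, and of the 13743 genes with such a peak, 6704 reached that fold. The folds given here are those of the best region within 5 kb of the span, which need not lie at a start. Among kinases and ubiquitin ligases that set the life of PER and CRY proteins, Csnk1e, a casein kinase gene, had the highest lower fold, with 33.8 and 31.3. Of the repressors, Nfil3, which competes with DBP at D-boxes, had 26.5 and 25.4, and Bhlhe41 had 26.8 and 23.5. At a start the Bhlhe41 folds were 18.8 and 16.9. Of the DBP-like and other output genes, Tef had 18.8 and 32.6 and Usp2, a deubiquitinase gene, 18.5 and 15.3. Npas2, which can stand in for CLOCK, had 19.5 and 21.2, against 11.3 and 7.26 at Arntl2, which had no shared peak within 1 kb of a start. The ROR genes, whose products activate Arntl, had lower folds, with 15.3 and 17.8 at Rora and 12.1 and 6.07 at Rorb. At a start the Rora folds were 13.7 and 16.7.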

How the data were processed

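Per the submitters' processing notes, reads were handled with BWA and MACS2 on mm10; the sources used here name no version, parameter or control of the caller. The authors deposited separate peak lists for the ChIP replicates, with no pooling. Fold enrichment is the authors' ratio of summit signal to background. Significance is given per peak as the authors' −log10 p-value and, after adjustment, as their −log10 q-value, while the deposited score is derived from the −log10 p and was not used. Positions were converted to 1-based coordinates.

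Peaks overlapping by at least 1 bp were taken as shared. Gene spans and promoter windows came from RefSeq tables of GRCm38.p6, and exons were not used. Summit pileup and background were solved from fold, as pileup plus 1 over background plus 1, and the Poisson p. The largest misfit in −log10 p was 4.07e-05, and on 1833 simulated peaks 100% of pileups were recovered. Read depth is unknown from these lists. Python 3.11.15, pandas 2.3.3 and scipy 1.17.1 were used.

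The members, the list of other pathway genes and the motifs were chosen with earlier results of these data known. The rule named all 10 members, the 3 highest shared regions of each, and 2 genes per role of the pathway list by the lower fold, of which 1 is not reported here; the start window of 1 kb, the fold limit of 15, the peak density and the values of weaker regions were chosen after the values were seen. No test was run, since there is 1 condition; counts of genes are read beside the share of all protein-coding genes under the same rule. Alternatives were other windows, limits on fold and q, equal list lengths, stricter overlap and single replicates.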

Additional observations from a re-analysis of the deposited data

How the results depend on the processing

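No paired analysis was possible because the inputs, which share replicate numbers with the ChIP samples, were not analysed here. The count of clock genes with a shared peak was 10 in the main setting and stayed at 10 with no flank, windows of 1 kb and 10 kb, a minimum fold of 5, a minimum −log10 q of 5, equal list lengths and the stricter overlap rule, where all protein-coding genes had shares of 58.3% to 66.2%. It was 9 with summits within 100 bp, without Arntl, and 8 within 1 kb of a span end only, without Arntl and Per1, whose starts lie inside their spans. All protein-coding genes then had shares of 56.8% and 53.5%. Of the 21 other pathway genes, 19 had a shared peak with no flank (without Bhlhe40 and Ciart), 20 within 1 kb of a span end (without Arntl2) and 20 with summits within 100 bp (without Fbxw11). The number of regions, 31, fell to 9 within 1 kb of a span end and was 31 to 67 with either replicate left out, the larger number being all peaks of replicate 1. Of 107 values of a gene's best lower fold under the alternatives, 102 stayed within 1.5 times. The others were Per1 at 22.3 with a 10 kb window, which then takes in a peak at Vamp2, Dbp at 8.34 within 1 kb of a span end, and 3 single-replicate values, 35.3 for Per2, 12.8 for Per1 and 10.2 for Nr1d1. Per1 and Nr1d1 are thus higher in replicate 1 alone. The fewer peaks of replicate 2 and its unknown depth limit what weak regions can show.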
